A study of Mus musculus with 5 samples.

Results

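SLAM family receptors and their SAP family adaptors were followed in splenic natural killer (NK) cells of mice with and without Myc. The genes were taken by symbol from the deposited gene table. They were the ligand gene Cd48, the receptor genes Cd244, Ly9, Cd84, Slamf7 and Slamf6, and the adaptor genes Sh2d1a, Sh2d1b1 and Sh2d1b2. Of these 9 genes, 8 were among the 13004 genes listed, and Sh2d1b2 had no row. RNA was sequenced from cells sorted as live CD3-, NK1.1+ and DX5+ from 8-week-old C57BL/6 mice. The 3 control libraries (replicates 1, 2 and 3) came from Mycf/f mice, whose Myc alleles carry loxP sites and for which the labels name no Cre. The 2 MycKO libraries (replicates 5 and 6) came from Mycdelta/delta/Ncr1Cre mice, in which Cre recombinase expressed from Ncr1 deletes Myc in cells that have switched on this NK cell gene, so the presence of Cre and the loss of Myc cannot be told apart. Whether the libraries stem from separate mice is not stated in the labels, and p-values therefore measure only the spread between these libraries.

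SLAM receptors are cell surface proteins of the immunoglobulin superfamily found on blood cells. Most of them bind a copy of themselves on a neighbouring cell, whereas CD244 (2B4) binds CD48. Their cytoplasmic tails carry tyrosine-based switch motifs, which dock the small SH2 proteins SAP (from Sh2d1a), EAT-2 (from Sh2d1b1) and ERT (from Sh2d1b2). SAP couples the receptors to the kinase FYN, and in the absence of the adaptors the tails can engage inhibitory phosphatases. In NK cells this decides whether the receptors promote or restrain killing of blood-derived target cells.

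The switch motif is a threonine, any residue, a tyrosine, any 2 residues, and a valine or isoleucine. The longest coding transcript of each gene in GENCODE vM21 (GRCm38) was searched in frame for codons that spell it. The matches in the receptor genes are shown because this motif is the kind of site that the adaptors bind. Each runs 5′ to 3′, and capitals mark the threonine, tyrosine and valine or isoleucine codons.
Cd244, codon 264 of 397: ACAataTATgaatatGTC
Cd244, codon 323: ACCatgTACtctatgATA
Cd244, codon 342: ACAgtaTATtcagtaGTC
Cd244, codon 367: ACCgtgTACgaggagGTT
Ly9, codon 585 of 654: ACTccaTATgataaaGTG
Ly9, codon 623: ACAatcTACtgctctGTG
Cd84, codon 263 of 329: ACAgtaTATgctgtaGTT
Cd84, codon 298: ACCattTATtcctcaGTG
Slamf6, codon 293 of 351: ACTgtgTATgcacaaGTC
Slamf6, codon 317: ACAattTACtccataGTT
Slamf7, codon 300 of 335: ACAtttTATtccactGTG
Cd244 had 4 matches, Ly9, Cd84 and Slamf6 had 2 each, and Slamf7 had 1. Cd48, whose protein is held in the membrane by a lipid anchor and has no tail, had 1 match at codon 105 of 240. The 3 adaptor genes had 0. A match is a description of the letters and not a measured docking site.

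The 5 receptor genes and Cd48 lie together on chromosome 1 in mm10 (GRCm38), and all are protein-coding. From Cd244 to Slamf6 the stretch measured 393978 bases. Cd244 (171559193 to 171609746, plus strand; Cd244a in GENCODE) came first. Ly9 (171588624 to 171607410, minus strand) lay within the span of Cd244, but no exon of a Cd244 transcript shared a base with an Ly9 exon. The protein-coding Cd244 transcript ends at 171585318, before Ly9, and only a transcript annotated for nonsense-mediated decay reaches 171609746. Slamf7 (171632403 to 171653035, minus strand), Cd48 (171682009 to 171705258, plus strand), Cd84 (171839697 to 171890718, plus strand) and Slamf6 (171917515 to 171953170, plus strand) followed. The relative Slamf1, which lies between Cd48 and Cd84, was near 0: controls 1, 2 and 3 had 0, 0.993 and 0.312 RPKM, and MycKO 5 and 6 had 0 and 0.335 RPKM. The adaptor gene Sh2d1b1 (170277320 to 170286769, plus strand) lies apart from them on the same chromosome, and Sh2d1a (42502453 to 42529330, plus strand) is on the X chromosome.

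Levels are in RPKM, which scales reads by the length of the transcript and the total of the library, so they can be compared between genes. Total reads over listed genes were 14290690 to 17610826 in controls, 5451728 in MycKO 5 and 13337084 in MycKO 6. The 8 genes held 9009 reads in MycKO 5 and 21738 to 26883 in the other libraries. The counting error of a single value ranged from 1.33% to 8.16%, with the highest for Slamf6 in MycKO 5, where 150 reads were counted. The intervals from reads cover counting error only, as the reads carried no molecular identifiers.

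The order of levels was Cd48, Ly9, Cd244, Sh2d1a, Cd84, Sh2d1b1, Slamf7 and Slamf6, by the mean over the 5 libraries. Cd48 lay above Ly9 in each library, at 247.5 to 286.9 RPKM against 86.8 to 105.5 RPKM. Ly9, Cd244 (83.6 to 100.5 RPKM) and Sh2d1a (72.2 to 102.3 RPKM) overlapped and could not be ordered. All values of Sh2d1a were above those of Cd84 (39.5 to 49.8 RPKM). Cd84, Sh2d1b1 (33.8 to 50.04 RPKM) and Slamf7 (28.7 to 39.9 RPKM) again overlapped from neighbour to neighbour. Slamf6 was the lowest in each library, at 8.10 to 16.7 RPKM. Against all listed genes the mean levels stood between the 53.4th percentile (Slamf6) and the 98.4th (Cd48). The lengths behind these values, worked out from the reads, were about 6571 bases for Slamf7 and 6680 for Cd84. The transcripts searched here had 1604 and 3291 bases, and for the same reads a longer length gives a lower RPKM. For Slamf6 (3118 against 5729 bases) and Sh2d1b1 (1433 against 2544 bases) the length used was the shorter. The places of Slamf7, Cd84 and Sh2d1b1 in the order thus depend on the lengths. With the same reads the longer length would put Slamf6 lower still, but reads were not recounted over the other lengths.

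**Figure D1:**
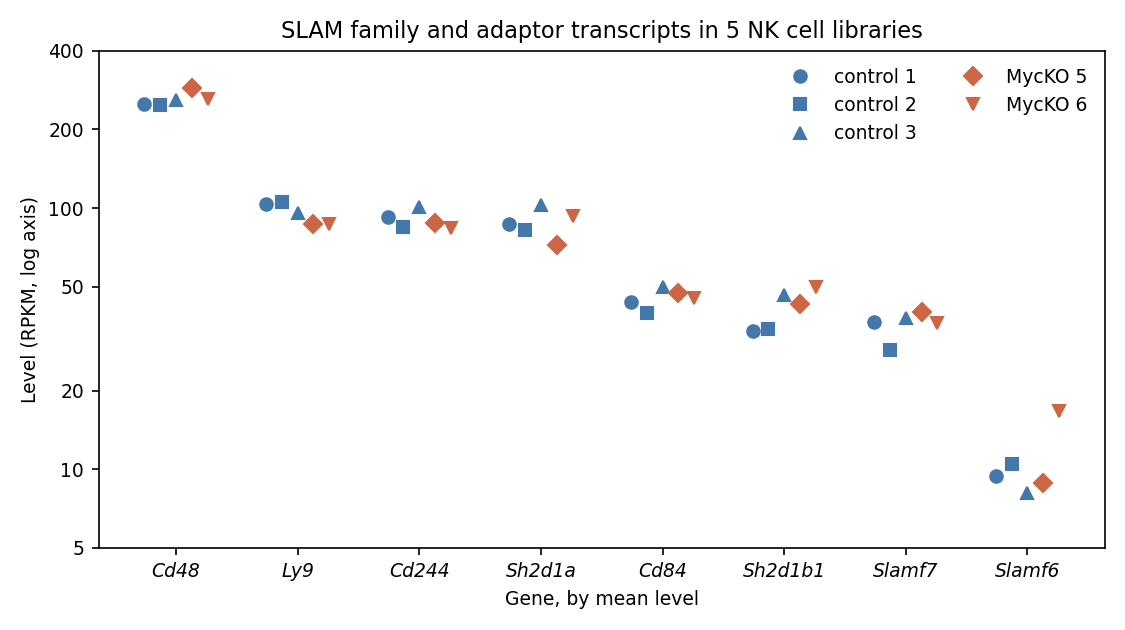
Level of each gene in RPKM (log axis) in the 3 control libraries (blue) and the 2 MycKO libraries (orange), with genes ordered by their mean. Both MycKO points lie above the control points for Cd48, below them for Ly9 and within their range for Cd84, at least 1 of them overlaps the controls for the other 5 genes, and the MycKO 6 point of Slamf6 stands above its other 4 points.

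Deletion of Myc was compared with control to ask whether this receptor and adaptor set depends on Myc. None of the 8 genes passed the test for a change. All log2 fold changes, on the scale of log2(RPKM + 1) and as MycKO minus control, lay between -0.22 (Ly9) and 0.36 (Slamf6), 5 above 0 and 3 below. The smallest adjusted p was 0.426, from limma with Benjamini-Hochberg adjustment over the 11190 genes tested. At an adjusted p under 0.05, 0 of 8 genes were called, beside 1.34% of all genes tested (1.24% higher and 0.0983% lower in MycKO). At an unadjusted p under 0.05, limma called 0 of the 8, beside 13.2% of all genes, and limma-voom also called 0, beside 12.5%. By adjusted p, limma-voom called 0 of 8, beside 2.07% of all genes, and the authors' deposited table called 0 of 8, beside 3.4%. Changes of at most 0.5 in size were found in 8 of 8, beside 80.6% of all genes. The median was 0.09 for the 8 genes and 0.05 for all genes tested. In 2 of 8 the groups did not overlap, beside 29.1% of all genes: both MycKO values were above all controls for Cd48, beside 18.8% of all genes, and below them for Ly9, beside 10.4%.

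**Figure D2:**
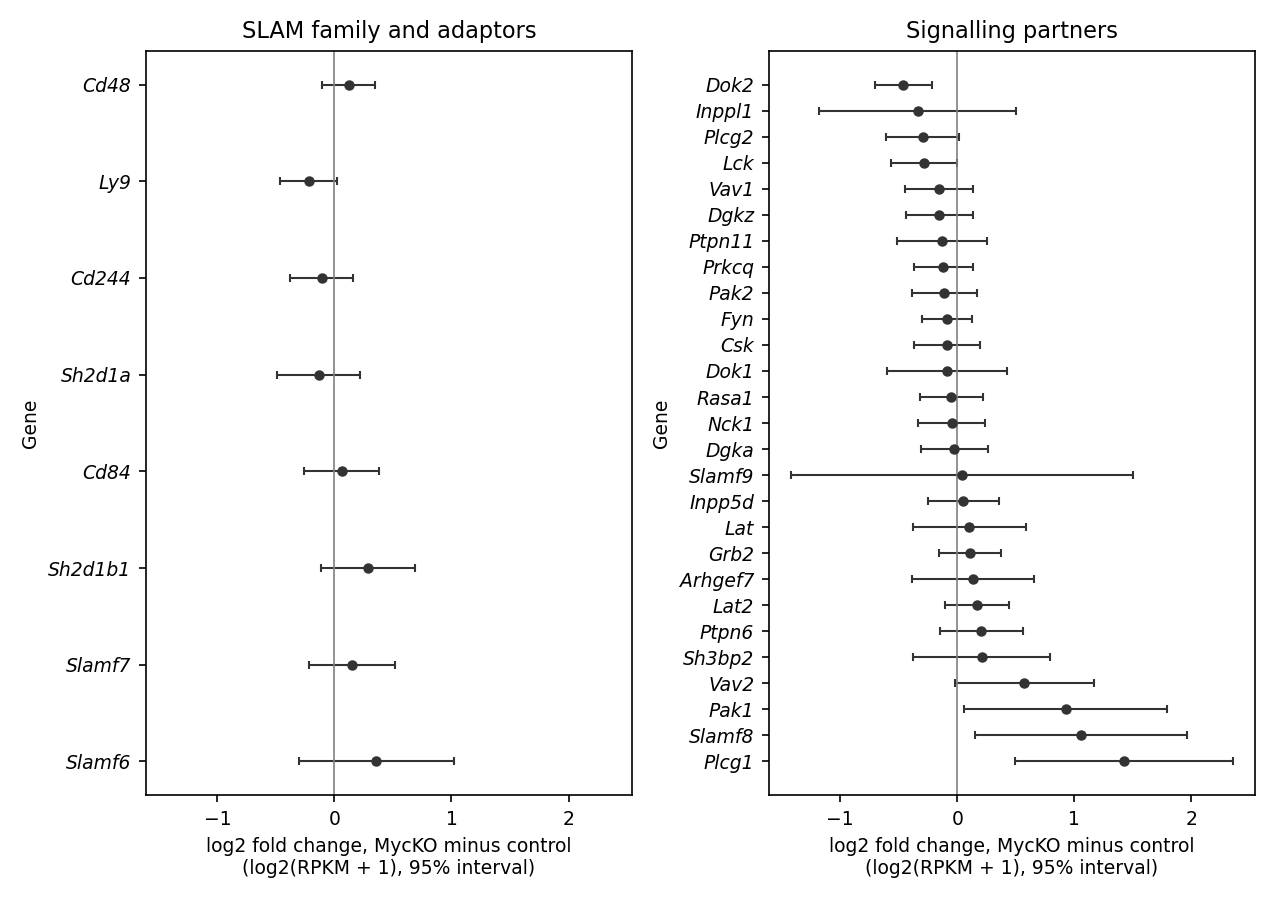
Log2 fold change, MycKO minus control on the log2(RPKM + 1) scale, as points with 95% intervals from limma, for the SLAM family and adaptor genes (left) and their signalling partners (right). All 8 intervals on the left include 0, and on the right Dok2 lies below 0 and Plcg1, Slamf8 and Pak1 above it before adjustment.

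Cd48 encodes the ligand of CD244, which NK cells also display on their own surface. Controls 1, 2 and 3 had 250.2, 247.5 and 258.3 RPKM, and MycKO 5 and 6 had 286.9 and 262.1 RPKM. Both MycKO values were above all controls, the nearest by little. The means were 252 ± 5.64 RPKM (SD, n = 3) and 274.5 ± 17.5 RPKM (SD, n = 2). A log2 fold change of 0.12 (SE 0.10; limma adjusted p = 0.704) had a 95% interval that allowed 0.929-fold to 1.27-fold the control level.

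Cd244 encodes 2B4, the receptor for CD48. Its level was 92.4, 84.9 and 100.5 RPKM in the respective controls 1, 2 and 3, while MycKO 5 and 6 had 87.5 and 83.6 RPKM. The groups overlapped, with control 2 between the MycKO libraries. The means were 92.6 ± 7.81 RPKM (SD, n = 3) and 85.6 ± 2.76 RPKM (SD, n = 2). Its log2 fold change of -0.11 (SE 0.11) had a limma adjusted p of 0.803, and the interval ran from 0.770-fold to 1.12-fold.

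Cd244 was the only member whose promoter held the E-box word CACGTG, the sequence bound by MYC with its partner MAX. RefSeq promoters (GRCm38.p6, from 250 bases before to 50 after the start) were at hand for 7 of the 9 genes, all but Ly9 and Sh2d1a. The word reads the same on both strands and was found in 7.15% of 32851 promoters of this length. Its first base is 64 bases before the start. The 100 bases before the start, chr1:171559093-171559192 on the plus strand, are shown with the word in capitals.
Cd244 promoter: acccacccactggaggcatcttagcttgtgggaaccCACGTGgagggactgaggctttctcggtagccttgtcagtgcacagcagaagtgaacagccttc
The T-box word GGTGTG, searched on both strands, was found in the promoter of Cd48 alone among the 7 and in 19.0% of all promoters. These matches describe the letters and carry no measurement of binding.

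Ly9 encodes CD229, a receptor that binds itself and is also abundant on T and B cells. Controls 1, 2 and 3 carried 103.4, 105.5 and 95.5 RPKM of it, and MycKO 5 and 6 carried 86.9 and 86.8 RPKM. Both MycKO libraries lay below all controls and within 0.1 RPKM of each other. The means were 101.5 ± 5.28 RPKM (SD, n = 3) and 86.8 ± 0.0559 RPKM (SD, n = 2). A log2 fold change of -0.22 (SE 0.10) was the lowest of the 8 and had the smallest p, 0.0673 before and 0.426 after adjustment in limma. Its interval ran from 0.725-fold to 1.01-fold. In the authors' deposited table the log2 ratio was -0.29 with an adjusted p of 0.468. The summed level of 10 NK cell markers, of which Gzma was the highest, was 9707 to 11442 RPKM in MycKO against 12329 to 14354 RPKM in controls. None of the 10 passed limma. Limma-voom called Gzma, Tbx21 and Prf1 lower in MycKO (adjusted p of 0.0242, 0.0313 and 0.0336), beside 2.07% of all genes in either direction. In both MycKO libraries 6 of the 10 were below all controls, beside 10.4% of all genes tested. Among the 6 is Ncr1, from which Cre is expressed in the MycKO mice, and the part of the Cre allele in its level was not tested. The groups of Nkg7, Klrk1, Klrd1 and Klrb1c overlapped. The part of the 10 markers in the value of Ly9 was not tested. In bulk RNA, fewer cells of a type and less RNA per cell cannot be told apart.

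Over the 5 libraries, the genes with the pattern most like that of Ly9 were Dock2, a guanine nucleotide exchange factor of the RAC pathway, Crkl, a signalling adaptor, and Arsb, a lysosomal sulfatase. With each gene centred on its control mean, their root mean square differences from Ly9 were 0.0115, 0.0217 and 0.0292 on the log2 scale. Their log2 fold changes were -0.21, -0.21 and -0.25, and none of them passed limma. How near the closest neighbours of other genes fall was not worked out.

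Cd84 encodes another self-binding receptor, present on many blood cells and on platelets. It was found at 43.7, 39.5 and 49.8 RPKM in the respective controls 1, 2 and 3, while MycKO 5 and 6 had 47.4 and 45.1 RPKM. Both MycKO values fell inside the control range. It had a log2 fold change of 0.06 (SE 0.14), a limma adjusted p of 0.924, the highest of the 8, and an interval of 0.837-fold to 1.31-fold.

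Slamf7 encodes CRACC, a self-binding receptor that works through EAT-2 in NK cells. Levels of 36.7, 28.7 and 37.8 RPKM were found for controls 1, 2 and 3, and of 39.9 and 36.2 RPKM for MycKO 5 and 6. MycKO 6 lay between controls, and control 2 was the lowest of the 5. Its log2 fold change was 0.15 (SE 0.16), its limma adjusted p 0.803 and its interval 0.859-fold to 1.43-fold. The gene Gm37787 shares 16.4% of the 51-base words of the Slamf7 transcript on the opposite strand, and no source used here says whether the counting used strand. Gm37787 had no row in the table. That Slamf7 transcript has 1604 bases, and the share within the length of about 6571 bases behind the level was not worked out.

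Slamf6 encodes Ly108, a receptor of NK, T and B cells. The levels in controls 1, 2 and 3 were 9.42, 10.5 and 8.10 RPKM, and those in MycKO 5 and 6 were 8.82 and 16.7 RPKM. MycKO 5 was among the controls and MycKO 6 was above all other libraries. From 694 reads, the 95% Poisson interval of MycKO 6 was 15.5 to 18.0 RPKM, whereas the highest bound of any other library was 11.3 RPKM, in control 2. The MycKO libraries thus differed from each other by more than counting error. With means of 9.32 ± 1.18 RPKM (SD, n = 3) and 12.8 ± 5.56 RPKM (SD, n = 2), the log2 fold change was 0.36 (SE 0.28), the limma adjusted p was 0.703, and the interval of 0.809-fold to 2.03-fold was the widest of the 8. Without MycKO 6 the log2 fold change was -0.07, and without MycKO 5 it was 0.78 with a limma adjusted p of 0.512. Summed T cell markers (8 listed genes) were at 178 RPKM in MycKO 6, 121.3 RPKM in MycKO 5 and 14.7 to 33.0 RPKM in controls, although the sort was for CD3- cells. Within that list Cd3e (38.2 and 13.5 RPKM in MycKO 6 and 5) was higher in MycKO 6, Cd8a (9.10 and 7.90 RPKM) was nearly level, and Cd4 (1.04 and 7.16 RPKM) was higher in MycKO 5. Summed macrophage and monocyte markers were also highest in MycKO 6 (1393 against 1144 RPKM in MycKO 5). Among them Ly6c2 (250.6 against 102.3 RPKM) was higher in MycKO 6 and Ccr2 (247.1 against 371.9 RPKM) in MycKO 5. B and plasma cell markers were at 710 against 371.7 RPKM, but without Jchain at 129.9 and 139.5 RPKM. NK cell markers were also higher in MycKO 6 than in MycKO 5 (11442 against 9707 RPKM). Lower in MycKO 6 were the sums of neutrophils (234.2 against 575 RPKM) and of red cells and platelets (85.8 against 206.8 RPKM). So were those of basophils and mast cells (9.23 against 57.7 RPKM) and of dendritic cells (250.6 against 320.9 RPKM). The part of these markers in the value of Slamf6 was not tested.

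Sh2d1a encodes SAP, the adaptor that brings FYN to the receptors. Controls 1, 2 and 3 had 86.9, 82.1 and 102.3 RPKM, and MycKO 5 and 6 had 72.2 and 93.1 RPKM. The MycKO libraries lay on either side of controls 1 and 2. For Sh2d1a the log2 fold change was -0.13 (SE 0.15), the limma adjusted p 0.821 and the interval 0.713-fold to 1.17-fold, and without MycKO 5 it turned to 0.05. Of the 51-base words of its transcript, 45.2% lie in Tenm1 on the opposite strand. Tenm1 had no row in the table.

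Sh2d1b1 encodes EAT-2, the adaptor linked to phospholipase C gamma and calcium signals in NK cells. Controls 1, 2 and 3 carried 33.8, 34.4 and 46.3 RPKM, and MycKO 5 and 6 carried 42.8 and 50.04 RPKM. Control 3 lay between the MycKO libraries, and controls 1 and 2 lay below both. The means were 38.2 ± 7.06 RPKM (SD, n = 3) and 46.4 ± 5.09 RPKM (SD, n = 2). Its log2 fold change was 0.29 (SE 0.17), the limma adjusted p 0.579 and the interval 0.923-fold to 1.61-fold. The genes most like it in pattern were Mbd1, which encodes a protein that binds methylated DNA, the splicing factor gene Luc7l3, and Tespa1. Their root mean square differences were 0.0226, 0.0442 and 0.0529 on the log2 scale over 5 libraries. None of them passed limma (adjusted p of 0.658, 0.586 and 0.601). How near the closest neighbours of other genes fall was not worked out.

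Sh2d1b2, which encodes ERT, lies next to Sh2d1b1 on chromosome 1 (170232749 to 170253608, plus strand). The coding sequences of both are 396 bases long and matched at 91.2% of aligned positions. Of the 51-base words of the Sh2d1b1 transcript of 2544 bases, 13.2% also occur in Sh2d1b2, so reads of 51 bases from this transcript can mostly separate them. The length behind the level of Sh2d1b1 was about 1433 bases, and the share within that length was not worked out. The coding window of 51 bases where they differ most, bases 310 to 360, holds 15 differences, in capitals here.
Sh2d1b1: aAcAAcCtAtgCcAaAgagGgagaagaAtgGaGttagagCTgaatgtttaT
Sh2d1b2: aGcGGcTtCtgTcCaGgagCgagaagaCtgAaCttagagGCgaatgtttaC
Reads from the shared words could have been counted for either gene, so the level of Sh2d1b1 carries this uncertainty.

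Ratios between members within a library were compared because they do not depend on the library total. In controls 1, 2 and 3, Sh2d1a stood at 2.57, 2.38 and 2.21 times Sh2d1b1, and in MycKO 5 and 6 at 1.69 and 1.86 times. Both MycKO ratios were below all controls, with means of 1.77 ± 0.123 (SD, n = 2) and 2.39 ± 0.182 (SD, n = 3). The exact permutation test (two-sided) gave p = 0.1, the smallest that 10 ways of dividing 5 libraries can give, and 0.4 after adjustment over the 4 ratios examined. Cd48 stood at 2.57 to 2.91 times Cd244 in controls and at 3.13 and 3.28 times in MycKO 6 and 5, again with no overlap (exact permutation p = 0.2, adjusted 0.4). How often the ratios of other gene pairs do not overlap was not worked out. Of single genes tested, 29.1% did not overlap. Ly9 to Cd244 (0.950 to 1.24 in controls, 0.992 and 1.04 in MycKO) and Slamf7 to Slamf6 (2.75 to 4.66 and 2.17 to 4.53) overlapped. None of the 4 ratios passed the test, and with 10 ways of dividing the libraries none could, so it decides nothing about them. The 4 ratios were not among the planned comparisons.

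**Figure D3:**
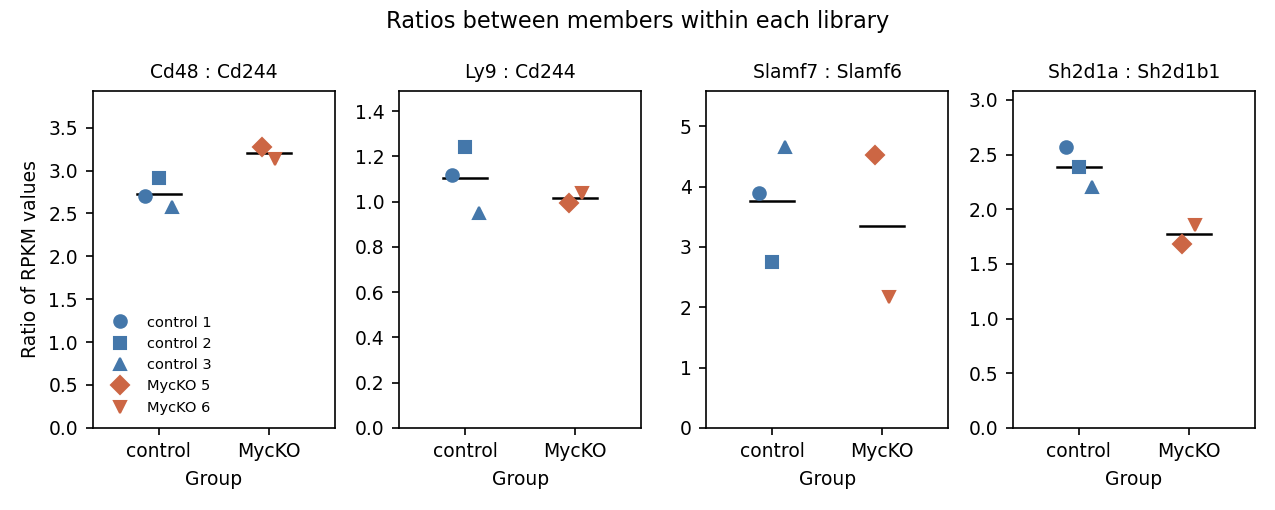
Ratio of RPKM values between members within each library, for 3 control (blue) and 2 MycKO (orange) libraries, with horizontal lines at group means. The groups are apart for Cd48 to Cd244 and for Sh2d1a to Sh2d1b1 and overlap for the other ratios. How often ratios of other gene pairs stand apart was not worked out.

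The 5 receptor genes summed to 269.1 to 291.8 RPKM in controls and to 270.5 and 268.4 RPKM in MycKO 5 and 6. Cd244 made up 31.6% to 34.5% of this sum in controls and 32.4% and 31.2% in MycKO 5 and 6. Ly9 made up 32.7% to 39.2% in controls and 32.1% and 32.3% in MycKO, below all controls. How often such shares of other genes lie below all controls was not worked out. Slamf6 made up 2.78% to 3.88% in controls, 3.26% in MycKO 5 and 6.22% in MycKO 6.

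The signalling partners of the receptors form a list of 28 genes, of which 27 were tested. None passed limma over all genes tested, beside 1.34% of all genes, and 4 had an unadjusted p under 0.05, beside 13.2%. Limma-voom called 0 at an adjusted p under 0.05, beside 2.07% of all genes, and 5 at an unadjusted p under 0.05, beside 12.5%. The median log2 fold change was -0.05, with 12 above 0 and 15 below. In 9 of 27 the groups did not overlap, beside 29.1% of all genes. Both MycKO values were above all controls in 4, beside 18.8%, and below them in 5, beside 10.4%. Dok2 and Plcg1 passed in the authors' deposited table, 2 of 28, beside 3.4% of its 13004 genes.

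Dok2, an adaptor that restrains RAS signalling, had the smallest p of the partners. Its values were 182.8, 191.6 and 204.8 RPKM in the respective controls 1, 2 and 3, while MycKO 5 and 6 had 134.1 and 145.6 RPKM, with no overlap. Its log2 fold change of -0.46 (SE 0.10) had a limma adjusted p of 0.0955, and in the authors' deposited table the log2 ratio was -0.52 with an adjusted p of 0.0164.

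Plcg1 encodes a phospholipase C that is the main form in T cells. Controls 1, 2 and 3 had 1.15, 0.538 and 0.741 RPKM, and MycKO 5 and 6 had 2.56 and 5.49 RPKM. Its log2 fold change of 1.42 (SE 0.40) had a limma adjusted p of 0.168, and the log2 ratio in the authors' deposited table was 2.25 with an adjusted p of 0.0367. MycKO 6 was the higher of the MycKO libraries. The part of the T cell markers given above, which did not all follow this order, was not tested. Plcg2, the other form of the enzyme, did not pass, with control and MycKO means of 55.6 ± 4.94 RPKM (SD, n = 3) and 45.1 ± 5.13 RPKM (SD, n = 2).

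Slamf8, a SLAM relative of myeloid cells without switch motifs, had 0.456, 1.67 and 1.54 RPKM across controls 1, 2 and 3, while MycKO 5 and 6 had 3.41 and 3.53 RPKM (log2 fold change 1.06, limma adjusted p = 0.302). Of 10 macrophage and monocyte markers, 8 rose in MycKO at a limma adjusted p under 0.05, beside 1.24% of all genes tested that rose. Their part in the value of Slamf8 was not tested. The kinase genes that act next to SAP were abundant: Fyn was at 232.5 ± 3.98 RPKM (SD, n = 3) and 218.5 ± 0.0485 RPKM (SD, n = 2), and Lck at 301.6 ± 34.4 RPKM (SD, n = 3) and 246.7 ± 0.424 RPKM (SD, n = 2). Both were lower in both MycKO libraries than in all controls, beside 10.4% of all genes tested. Neither passed limma (adjusted p of 0.796 and 0.380). The most abundant partners with other roles were the phosphatase gene Ptpn6 (SHP-1; log2 fold change 0.20), the adaptor gene Lat2 (0.17) and the kinase gene Prkcq (-0.12), and none of them passed.

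The sorted cells carried high levels of all 10 NK cell markers, led by Gzma at 4699 to 7251 RPKM, and the marker sums of the other spleen cell types stood higher in both MycKO libraries than in all controls. By single genes, limma called higher 8 of 10 tested macrophage and monocyte markers, 3 of 6 of red cells and platelets, 2 of 7 of neutrophils, 1 of 10 of B and plasma cells, 0 of 4 of basophils and mast cells and 0 of 7 of dendritic cells, beside 1.24% of all genes. Summed marker levels of B and plasma cells were 371.7 and 710 RPKM in MycKO 5 and 6 against 91.3 to 148.6 RPKM in controls, with Jchain the highest, and without Jchain they were 139.5 and 129.9 RPKM against 46.3 to 74.0 RPKM. Those of macrophages and monocytes were 1144 and 1393 RPKM against 527.7 to 828.4 RPKM, with Ccr2 the highest, and in this list Ccr2 and Ly6c2 overlapped between groups, Ly6c2 with the lower mean in MycKO (176.4 against 274.3 RPKM). Neutrophil markers (led by S100a8) reached 575 and 234.2 RPKM against at most 79.3 RPKM, and those of red cells and platelets (led by Car1) 206.8 and 85.8 RPKM against at most 8.46 RPKM. Basophil and mast cell markers were at 57.7 and 9.23 RPKM against at most 5.85 RPKM, with Mcpt8 at 0 in all 3 controls, and dendritic cell markers (mostly Itgax, whose groups overlapped) at 320.9 and 250.6 RPKM against at most 246.7 RPKM. Among T cell markers, Cd3g was the highest, at 62.0 and 75.9 RPKM in MycKO 5 and 6 against 8.14 to 14.3 RPKM in controls, and 3 of 7 tested genes rose at a limma adjusted p under 0.05, beside 1.24% of all genes. Blood cells other than NK cells express genes of this set as well, Cd48, Ly9, Cd84 and Slamf6 among them. The part of these cells in the values of the 8 genes was not tested. Myc had means of 19.1 ± 5.34 RPKM (SD, n = 3) for control and 10.6 ± 2.68 RPKM (SD, n = 2) for MycKO (limma adjusted p = 0.297), and Ncr1 of 1264 ± 344.7 and 688.5 ± 78.7 RPKM (0.143). No source used here names the deleted part of Myc, so its level cannot show how complete the deletion was. The part of the Cre allele in the level of Ncr1 was not tested.

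**Figure D4:**
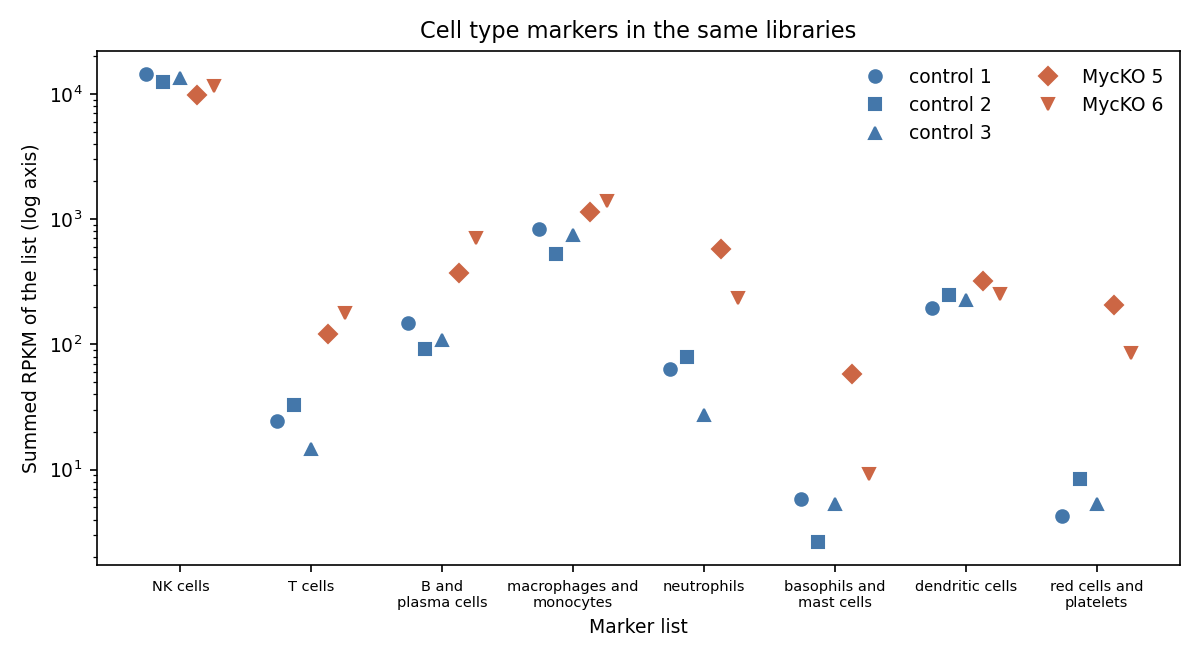
Summed RPKM (log axis) of each list of cell type markers in the 3 control (blue) and 2 MycKO (orange) libraries. The NK cell list is lower in both MycKO libraries, and the lists of T cells, B and plasma cells, macrophages, neutrophils, basophils, dendritic cells and red cells are higher than in all controls.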

How the data were processed

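Stranded dUTP libraries of sorted cells were sequenced as single reads of 51 bases, per the labels' protocols. Per the submitters' processing notes, TopHat and edgeR were used and the build was mm10; their versions, the annotation and whether strand was used are not given in the sources here. The deposited table gives RPKM per sample, the authors' mean normalized signal, their ratio (fold change) and log2 ratio, and their p-value and adjusted p-value, whose test the header does not name. The sample columns carry no unit in the header; they were taken as RPKM because, with the authors' group means, they gave whole reads (100% within 0.001 of a read). The lowest mean signal of a listed gene was 2.1.

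RPKM values were analysed as log2(RPKM + 1), keeping genes that reached 1 RPKM in 2 or more samples. limma 3.58.1 (R 4.3.3) with a variance trend was fitted to the groups over all 5 samples (3 residual and 4.41 prior degrees of freedom). Tests were two-sided with Benjamini-Hochberg adjustment over all genes tested and a threshold of 0.05. limma-voom used the whole reads. The limma procedure was also run on simulated counts with the same spread setting for every gene, which does not show how it behaves on these libraries. Libraries were not duplicates (chi-square per degree of freedom at least 17.5). The members and gene lists were chosen with earlier results of these data known. Named genes were the 9 members, the 3 partners with the smallest p, the most abundant gene of each partner role and marker list, Myc and Ncr1, and the 3 genes most like each of the 2 members with the smallest p. Pak1, Plcg2, Fyn, Slamf1, Cd3e, Cd4, Cd8a, Ly6c2, Nkg7, Klrk1, Klrd1, Klrb1c, Tbx21, Prf1 and Tenm1 were named after their values were seen. Alternatives were no filter, a pseudocount of 0.1, 5 CPM in 2 samples as the minimum, 2 other scalings (median-of-ratios and upper-quartile), leaving out each library, limma-voom, a threshold of 0.01 and, added after seeing the data, the authors' test. Figures used matplotlib 3.10.9.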

Additional observations from a re-analysis of the deposited data

How the results depend on the processing

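The count of SLAM family and adaptor genes called was 0 under each alternative, including the authors' deposited test, and the adjusted p of a member was at least 0.313 in all of them. Of 96 member values under alternatives, 92 kept their direction. The exceptions were Slamf6, at -0.066 without MycKO 6 and 0.78 without MycKO 5, Cd84, at -0.015 without control 2 (0.15 without control 3) and -0.0013 in the authors' deposited table, and Sh2d1a, at 0.047 without MycKO 5 and -0.31 without MycKO 6. Partners called were 0 except in the authors' test, with 2. The number of all genes called, 150, was 80 with a pseudocount of 0.1, 232 in limma-voom, 442 in the authors' test, 24 at an adjusted p under 0.01, and 34 (without MycKO 5) to 217 (without control 2) when a library was left out: 39 without control 1, 35 without control 3 and 54 without MycKO 6. Ncr1 passed without control 2 (-1.05, adjusted p = 0.0265) and in the authors' test (-0.94, adjusted p = 0.000689). No paired analysis was possible because the groups share no replicate number. Depth limited the values of MycKO 5 most, and with 1 MycKO library left the lone sample was assumed to vary like the controls.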
